A study of Mus musculus with 12 samples.

Results

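Voltage-gated and potassium channel genes were measured in the paraventricular nucleus of the hypothalamus (PVN) of adult male mice. The set was chosen by gene symbol: pore-forming and auxiliary subunits of sodium channels (Scn), calcium channels (Cacna, Cacnb, Cacng), cyclic nucleotide-gated pacemaker channels (Hcn) and all potassium channel families (Kcn). Among the deposited gene symbols 137 fitted this rule, and the 98 with a mean of at least 1 RPKM (reads per kilobase of transcript and M mapped reads) over the 12 libraries were followed, out of 13273 genes at that level and 23260 genes in all. The other 39 lay below it. The symbol rule left out Scn2a1, an older name of the gene for the sodium channel Nav1.2, and Kcnrg, and it took in the noncoding RNA Kcnq1ot1, which was under the filter.

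The study compared 2 groups of 6 animals. In the miR group, zygotes of a hybrid of C57/Bl6 and 129S6/SvEvTac had been microinjected with 9 miRIDIAN mimics of microRNAs at 1 ng/uL in total, or 0.11 ng/uL each. In the PBS group, zygotes of the same hybrid strain had received the vehicle, 1X DPBS, alone. Embryos of both groups were carried by CD1 surrogate dams, and PVN micropunches were taken from males of 18 to 20 weeks, so every animal had been injected and transferred as an embryo. The series calls the 6 libraries of a group biological replicates; litters and injection sessions are not given, and the p-values measure the spread between these animals. The design asks what microRNAs put into the zygote leave behind in the adult PVN.

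Ion channels set how a neuron fires. Sodium channels carry the upstroke of the action potential, potassium channels repolarise the membrane and hold it at rest, calcium channels couple firing to secretion, and Hcn channels carry a pacemaker current. In the PVN these currents shape the firing of magnocellular neurons, which release vasopressin and oxytocin, and of parvocellular neurons, which drive the pituitary stress axis.

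The injected microRNAs bind messenger RNAs through the seed, bases 2 to 8 from the 5′ end, and their sequences are shown here because the seeds were later searched in the channel transcripts. Mature sequences come from RefSeq (build GRCm38.p6), 5′ to 3′, with the seed in capitals. The labels give an arm for miR-532-3p and miR-193-5p alone; for the others printed here the arm by which the family is usually named was taken. MiR-30a and miR-30c share their seed.
miR-29c-3p: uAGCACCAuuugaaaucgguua
miR-30a-5p: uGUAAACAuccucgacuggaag
miR-30c-5p: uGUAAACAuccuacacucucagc
miR-32-5p: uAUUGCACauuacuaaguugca
miR-204-5p: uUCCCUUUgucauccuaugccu
miR-532-3p: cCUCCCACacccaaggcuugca
The other mimics were miR-193-5p, miR-375 and miR-698.

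Depth, read from the smallest steps between values of intronless genes, was 22.8 to 45.1 M reads in the miR libraries and 27.6 to 38.1 M reads in the PBS libraries. The punches carried the markers of the labelled tissue: all 7 PVN markers measured (Avp, Oxt, Crh, Trh, Sim1, Otp and Pou3f2) were present, with group means from 7.66 to 2703 RPKM. PBS replicates 8, 9, 10 and 12 stood apart in the noncoding RNA Meg3 and other nuclear-retained RNAs. Meg3 had 49.9 to 68.1 RPKM in the miR libraries, while PBS replicates 7 and 11 measured 50.6 and 58.0 RPKM. Those 4 PBS libraries measured 158, 316, 190 and 245 RPKM. For the channel genes named for a difference between miR and PBS, values without these 4 libraries are also given. Those values rest on replicates 7 and 11 alone in the PBS group.

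The set spanned levels from 1.02 RPKM (Kcnmb2, an auxiliary subunit of the BK channel) to 83.4 RPKM (Kcnj10, the astrocyte inward rectifier Kir4.1). The median gene had a mean of 10.1 RPKM, 49 of the 98 genes had 10 RPKM or more, and 29 had less than 5 RPKM. Just inside the filter lay Kcnmb2 at 1.02, Kcnk4 at 1.15 and Kcns3 at 1.17 RPKM, and just outside lay Kcnh4 at 0.89, Kcnn4 at 0.87 and Scn4b at 0.85 RPKM. In these bulk punches, fewer cells of a type and less RNA per cell cannot be told apart. Levels are per transcript length and may be compared between genes, with the reserve that 29 of the genes have several transcript rows, of which the highest was used.

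Auxiliary beta subunits of sodium channels, which modulate gating and surface delivery, had high levels. Scn2b had 46.9 ± 4.23 RPKM in miR against 46.8 ± 3.21 RPKM in PBS (SD, n = 6 each, as for all group means below). Scn3b, another beta subunit gene, had 38.0 ± 1.98 RPKM in miR against 36.8 ± 2.11 RPKM in PBS. The pore-forming genes followed here, without Scn2a1, had lower levels: Scn1a averaged 13.0 RPKM over all libraries, Scn3a 11.7 RPKM and Scn8a 9.91 RPKM.

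Calcium channel pores (8 genes) had a median level of 8.38 RPKM and were led by Cacna1b, the N-type channel of nerve endings, with 17.1 ± 1.05 RPKM in miR against 17.4 ± 2.29 RPKM in PBS. Next came Cacna1e, the R-type channel, with 12.9 ± 0.876 RPKM in miR against 13.0 ± 1.31 RPKM in PBS. Their partners (13 genes of the Cacna2d, Cacnb and Cacng groups) had a median of 18.8 RPKM. The highest of them were Cacng7, whose product also attends AMPA receptors, at 42.1 ± 2.24 RPKM in miR against 45.9 ± 3.70 RPKM in PBS, and the beta subunit gene Cacnb3 at 36.04 ± 5.38 RPKM in miR against 40.4 ± 3.84 RPKM in PBS. Among the 4 pacemaker channel genes Hcn2 was highest, with 17.8 ± 0.775 RPKM in miR against 18.0 ± 1.73 RPKM in PBS, followed by Hcn3 with 9.35 ± 0.933 RPKM in miR against 11.1 ± 1.503 RPKM in PBS.

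Among voltage-gated potassium channels, the Kcnd pores of the fast A-type current and their Kcnip partners were the most abundant family by median (20.4 RPKM, 7 genes). Kcnip4 had 45.6 ± 4.12 RPKM in miR against 44.2 ± 2.40 RPKM in PBS, and Kcnip1 34.3 ± 2.63 RPKM in miR against 33.0 ± 2.52 RPKM in PBS. Kcnq3, a pore of the M-current that damps repeated firing, had 7.43 ± 0.845 RPKM in miR against 7.20 ± 1.44 RPKM in PBS. The fast delayed rectifiers of the Kcnc family were led by Kcnc4 (mean 22.4 RPKM) and Kcnc1 (16.8 RPKM). In the Kcna family Kcna6 (20.6 RPKM) and Kcna2 (12.7 RPKM) were highest, and of their cytoplasmic beta subunits Kcnab2 (33.2 RPKM) and Kcnab1 (13.3 RPKM). Among the silent subunits that join Kcnb pores, Kcnf1, which forms no channel on its own, had a mean of 9.12 RPKM. In the ether-a-go-go family Kcnh2 (15.7 RPKM) and Kcnh1 (10.98 RPKM) led.

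The remaining potassium channels are gated by other signals. Of the calcium- and sodium-activated group, the BK channel beta subunit gene Kcnmb4 had a mean of 33.2 RPKM, the sodium-activated channel gene Kcnt1 13.2 RPKM and the BK pore Kcnma1 11.2 RPKM. Inward rectifiers spread most widely, with Kcnj10 at 87.7 ± 5.08 RPKM in miR against 79.1 ± 6.99 RPKM in PBS, Kcnj9 (a G protein-gated channel) at a mean of 21.4 RPKM, and Kcnj4 at 1.70 RPKM. The 2-pore leak channels, which set the resting potential, were led by Kcnk9 (20.0 RPKM) and Kcnk1 (16.2 RPKM).

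**Figure D1:**
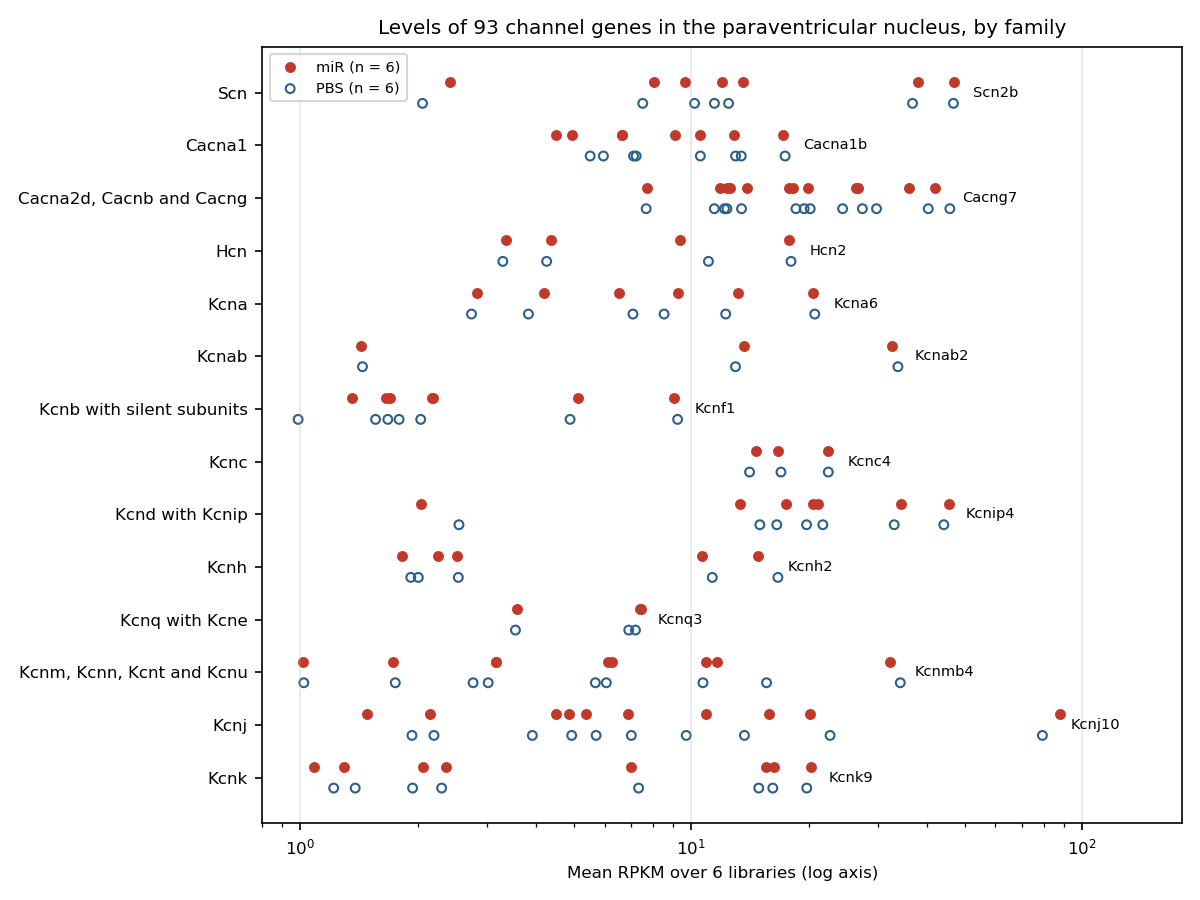
Mean RPKM of 93 channel genes (log axis), by family, with miR as filled red points above PBS as open blue points (n = 6 libraries each); the highest gene drawn in each family is named. The 2 groups lie close together in every family, and Kcnj10 stands highest at 83.4 RPKM over all libraries.

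Variation between libraries is given as a description, with no test: the median SD of log2(RPKM + 0.5) over the 12 libraries was 0.171, against 0.133 for all tested genes. Members of a family hardly moved together, with a median pairwise r of 0.092 over 346 pairs within families and 0.047 over 4407 pairs between families (a description; pairs share libraries). The calcium channel pores were the most coherent, with a median of 0.49 over 28 pairs. The steadiest genes were Scn3b (SD 0.0787) and Kcna6 (0.0893). The most variable were Cacng3 (0.435), Kcnk13 (0.405) and Kcns2 (0.401), and these varied within both groups.

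Covariation with Slc17a6, the vesicular glutamate transporter VGLUT2 of glutamate neurons, gave the channel genes that passed the adjusted threshold. Slc17a6 (chromosome 7, 58877200 to 58926496, build mm9 as for all coordinates from the table) spanned 33.8 to 87.9 RPKM in miR against 30.3 to 61.6 RPKM in PBS. With limma, 5 of the 98 channel genes rose with it at an adjusted p under 0.05 over all genes (background 0.769% of tested genes) and 0 fell (background 0.098%). At an unadjusted p under 0.05 the counts were 19 rising (background 6.95%) and 4 falling (background 3.62%). The 5 genes were Kcns2, Kcnk13, Kcna4, Cacng3 and Kcnj5, and 4 of them were among the 10 most variable channel genes. In all, 294 relations were computed, for 98 genes and the 3 anchor genes Slc17a6, Avp and Meg3.

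Kcns2 (chromosome 15, 34767136 to 34772092) encodes Kv9.2, a silent subunit that modifies Kv2 channels. Its lowest, median and highest levels were 3.29, 4.61 and 8.02 RPKM in miR against 3.17, 5.10 and 6.73 RPKM in PBS. The groups overlapped over nearly their whole range, and the highest value in each came with high Slc17a6. Pearson's r with Slc17a6 was 0.91, with a permutation p of 1e-05, the smallest that 100000 resamples can give, and Spearman's rho was 0.94 (permutation p = 7e-05). The limma slope was 0.88 ± 0.12 (log2 per log2 of Slc17a6, SE), with an adjusted p of 0.00219. Without PBS replicate 12 and miR replicate 6, the libraries farthest from the median of Slc17a6, r was 0.89.

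Kcnk13 (chromosome 12, 101202709 to 101300892) encodes the 2-pore channel THIK-1, known from microglia. It had 1.25, 2.30 and 3.45 RPKM (lowest, median, highest) in miR and 1.43, 2.27 and 3.25 RPKM in PBS, again with full overlap. Its r was 0.88 (permutation p = 7e-05), its rho 0.95 (permutation p = 5e-05) and its limma adjusted p 0.00782, and r was 0.82 without those 2 libraries. Of 7 microglial markers, 0 rose or fell with Slc17a6 by limma at the adjusted threshold or at an unadjusted p under 0.05, and their median r was 0.13.

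Kcna4 (chromosome 2, 107130746 to 107138661), the A-type channel Kv1.4, had 3.11, 4.23 and 4.94 RPKM in miR against 2.77, 3.94 and 4.37 RPKM in PBS. Its relation was weaker by rank and without the farthest libraries: r was 0.91 (permutation p = 0.00012) and rho 0.70 (permutation p = 0.0142), the limma adjusted p was 0.0128, and r was 0.72 without the 2 farthest libraries. Cacng3 (chromosome 7, 129815258 to 129912907), whose product is an auxiliary subunit of AMPA receptors despite its calcium channel name, had 9.91, 15.1 and 29.7 RPKM in miR against 12.8, 18.0 and 25.5 RPKM in PBS. Its r was 0.82 (permutation p = 0.00118), rho 0.78 (permutation p = 0.00406) and limma adjusted p 0.0259. Without the 2 farthest libraries its r was also 0.72. It spanned the widest range of the 5.

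Kcnj5 (chromosome 9, 32122368 to 32151822), the G protein-gated rectifier GIRK4, had 3.48, 4.01 and 7.78 RPKM in miR against 2.97, 3.85 and 5.10 RPKM in PBS. The highest value, in miR replicate 3, stood alone. Its r was 0.81 (permutation p = 0.00139), rho 0.76 (permutation p = 0.00599) and limma adjusted p 0.0409, the weakest of the 5. Without the 2 libraries farthest from the median of Slc17a6 its r was 0.83. Without miR replicate 3 its adjusted p was 0.243 at an r of 0.75. Between the 5 genes themselves, pairwise r ran from 0.65 to 0.97 over 10 pairs, as a description of 12 shared libraries.

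**Figure D2:**
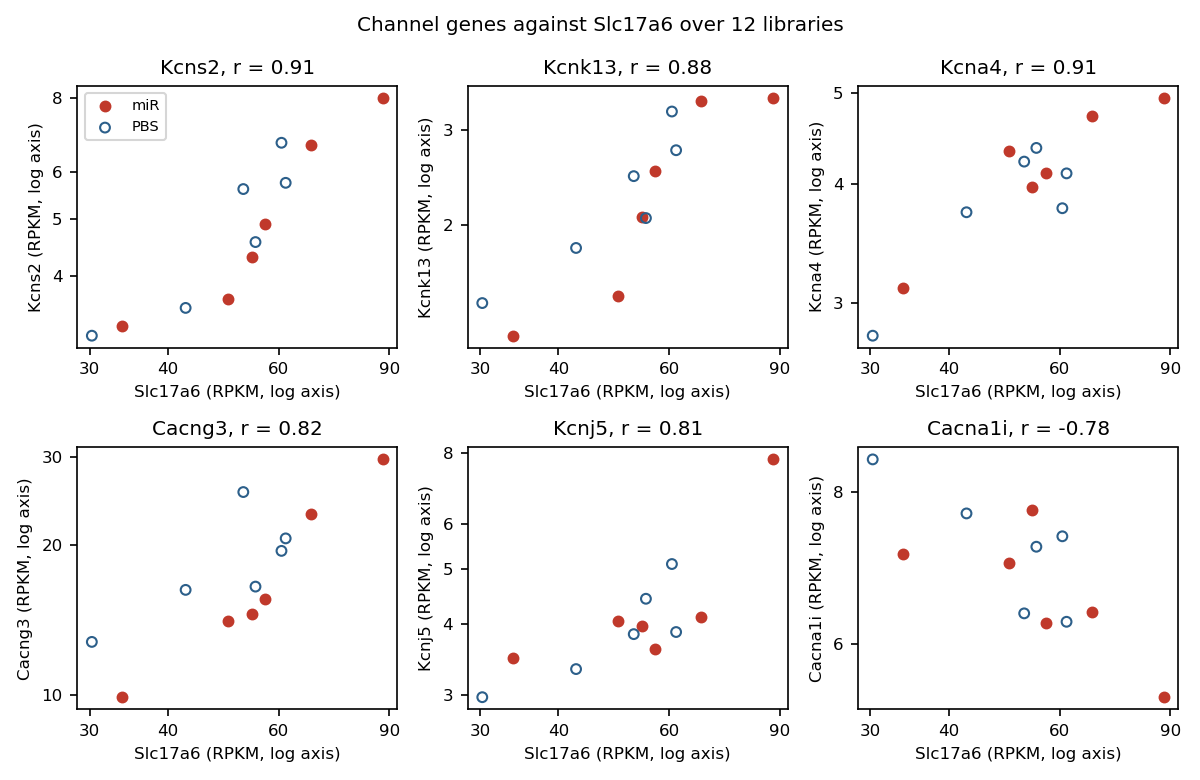
RPKM of the 5 channel genes called with Slc17a6, and of Cacna1i, against RPKM of Slc17a6 (log axes); filled red points are miR libraries and open blue points PBS libraries, 6 each, and r is Pearson's r on the log2 scale. Kcns2 and Kcnk13 rise over the whole range in both groups, the high point of Kcnj5 is 1 miR library at 7.78 RPKM, and Cacna1i runs the other way (r = -0.78, not called).

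The count of called genes depended on single libraries at both ends of the Slc17a6 range. It was 3 without miR replicate 3 (Kcnq3, Kcns2 and Kcnk13), 2 without miR replicate 6 (Kcns2 and Kcnk13) and 3 without PBS replicate 12 (Kcns2, Kcnk13 and Cacng3). Kcns2 was called in all 21 alternatives run and Kcnk13 in all 20 that tested it. Kcna4 was called in 17 of 20, Cacng3 in 17 of 21 and Kcnj5 in 9 of 20. With the group as an added term, 5 genes were called (background 0.821% rising); 4 were shared, Kcnj5 had an adjusted p of 0.0570, and Kcnj12, a strong inward rectifier, was called.

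Within each group the r of the 5 genes was positive. These genes were chosen by their slopes over the same 12 libraries, so these values are a description and add no further test. Kcns2 had an r of 0.94 within miR and 0.90 within PBS, and Kcnk13 of 0.92 within miR and 0.91 within PBS. Kcna4 had 0.94 within miR and 0.87 within PBS, Cacng3 0.97 within miR and 0.75 within PBS, and Kcnj5 0.79 within miR and 0.84 within PBS. Over all 98 genes, 53 had the same sign of r in both groups, 17 had an r above 0.5 in both and 3 an r below -0.5 in both. Kcnd2, an A-type pore, had an r of 0.87 with little spread (limma adjusted p = 0.0631, not called).

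**Figure D3:**
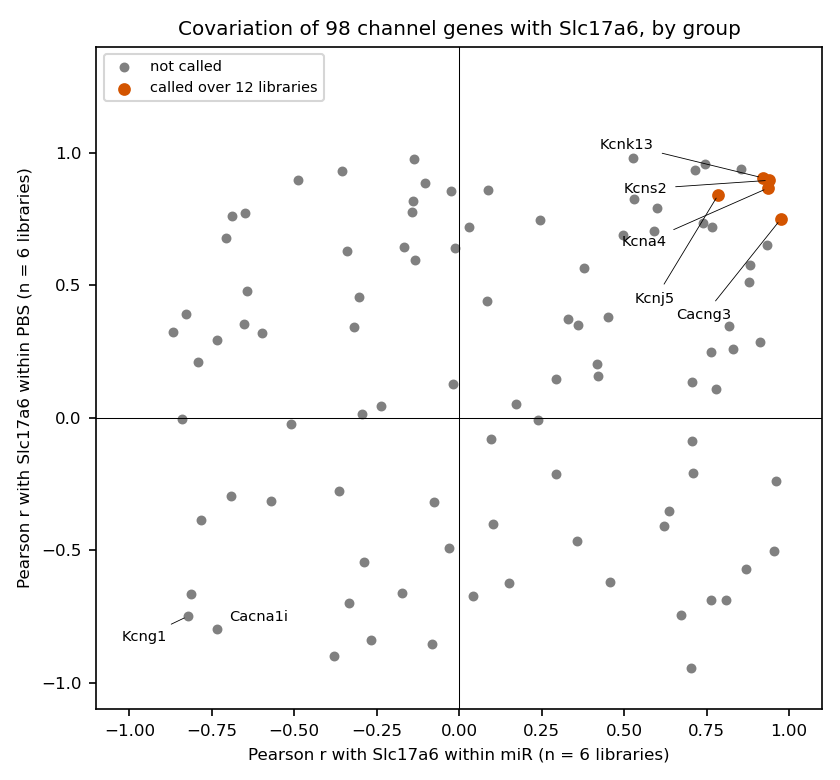
Pearson r with Slc17a6 within the 6 miR libraries (horizontal) against r within the 6 PBS libraries (vertical) for each of the 98 channel genes; orange points are the 5 genes called over all 12 libraries. These 5, chosen on the same libraries, lie in the upper right corner, while the whole set fills all 4 quadrants, with 53 genes of the same sign.

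The lowest correlations with Slc17a6 belonged to Cacna1i, a T-type calcium channel, with r = -0.78 (permutation p = 0.00301) and rho = -0.64 (permutation p = 0.0301), Kcng1, a silent subunit, with r = -0.73 (permutation p = 0.00503) and rho = -0.72 (permutation p = 0.0104), and Cacna2d2, an auxiliary calcium channel subunit, with r = -0.66 (permutation p = 0.0183) and rho = -0.83 (permutation p = 0.00189). None passed in limma, with adjusted p-values of 0.127, 0.153 and 0.385. Without the 2 farthest libraries their r was -0.77, -0.61 and -0.54.

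Markers of the neighbouring thalamus moved with the same gene. Of 7 thalamic markers tested, 4 rose with Slc17a6 in limma (background 0.769%): Gbx2 (r = 0.95), Ntng1 (r = 0.94), Tcf7l2 (r = 0.93) and Calb2 (r = 0.86). The 8 listed markers, Slc17a6 included, summed to 188 to 514 RPKM in miR against 218 to 375 RPKM in PBS, and none was at 0. Of 3 inhibitory markers, 1 fell with Slc17a6 at the adjusted threshold (background 0.098%), Gad1 (r = -0.78, limma adjusted p = 0.0465). Gad2 (r = -0.69, limma adjusted p = 0.160) and Slc32a1 (r = -0.63, limma adjusted p = 0.254) did not pass. The part of thalamic tissue in the rise of the 5 channel genes was not tested.

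Promoters are shown for 3 of the called genes, from the RefSeq table (build GRCm38.p6), since these genes moved together. Each is the 250 bases before the annotated start, read 5′ to 3′ on the gene's strand, with GC boxes in capitals (GGGCGG on either strand). GENCODE gives the same strand for all 3 genes; its first Kcna4 transcript starts further downstream, at 107290639.
Kcnk13, chr12:99964249-99964498, plus strand: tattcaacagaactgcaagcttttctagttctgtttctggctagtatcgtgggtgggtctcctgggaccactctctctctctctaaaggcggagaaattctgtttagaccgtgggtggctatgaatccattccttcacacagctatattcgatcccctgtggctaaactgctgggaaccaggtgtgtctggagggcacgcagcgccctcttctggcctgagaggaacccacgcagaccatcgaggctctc
Kcna4, chr2:107290339-107290588, plus strand: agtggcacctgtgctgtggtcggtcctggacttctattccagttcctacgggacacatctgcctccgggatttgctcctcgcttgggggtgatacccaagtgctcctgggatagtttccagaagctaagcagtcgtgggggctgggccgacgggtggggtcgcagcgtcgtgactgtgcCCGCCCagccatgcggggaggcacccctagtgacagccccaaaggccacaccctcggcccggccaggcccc
Kcnj5, chr9:32344345-32344594, minus strand: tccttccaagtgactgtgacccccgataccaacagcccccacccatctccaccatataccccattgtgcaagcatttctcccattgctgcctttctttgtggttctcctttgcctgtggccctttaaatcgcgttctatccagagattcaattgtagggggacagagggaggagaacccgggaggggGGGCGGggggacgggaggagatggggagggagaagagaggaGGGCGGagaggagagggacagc
A GC box stood once in the Kcna4 window and in 2 places in the Kcnj5 window, and 4 motifs were searched on both strands: GGGCGG, the TATA box TATAAA, the cyclic AMP response element TGACGTCA and the Tcf and Lef core CTTTGA. None of the last 3 was found in these 3 windows. Over 104 windows of 71 channel genes, against 32851 windows of all genes, the GC box was in 45.2% against 32.7%, TATAAA in 2.88% against 12.4%, TGACGTCA in 0% against 1.55% and CTTTGA in 8.65% against 13.8%. Channel gene windows had a median GC content of 59%, against 52.4% in all windows.

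Avp, which encodes vasopressin, gave no called channel gene. Its levels spanned 505 to 1193 RPKM in miR against 372 to 1564 RPKM in PBS and was almost unrelated to Slc17a6 (r = 0.15 over 12 libraries, a description). With limma 0 of 98 genes passed in either direction (background 0%). At an unadjusted p under 0.05, 7 genes were on the rising side (background 5.01%) and 3 on the falling side (background 3.59%).

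The highest correlations with Avp were those of Kcnmb4, with r = 0.75 (permutation p = 0.00408) and rho = 0.80 (permutation p = 0.0029), Kcnh2, the Erg1 potassium channel, with r = 0.66 (permutation p = 0.0188) and rho = 0.81 (permutation p = 0.00225), and Cacnb1, with r = 0.59 (permutation p = 0.0406) and rho = 0.70 (permutation p = 0.0142). Kcnmb4 had 26.8, 31.7 and 38.9 RPKM (lowest, median, highest) in miR and 26.8, 34.8 and 41.7 RPKM in PBS, and its r was 0.74 within miR and 0.75 within PBS. The lowest were Kcnj10, with r = -0.71 (permutation p = 0.00927) and rho = -0.73 (permutation p = 0.00873), Kcnj16, with r = -0.60 (permutation p = 0.0388) and rho = -0.60 (permutation p = 0.0433), and Scn1a, with r = -0.60 (permutation p = 0.0387) and rho = -0.75 (permutation p = 0.00713). Limma's adjusted p was 0.535 for Kcnmb4, Kcnh2 and Kcnj10, 0.559 for Cacnb1, and 0.551 for Kcnj16 and Scn1a. Without PBS replicate 7 and miR replicate 6, r was 0.63 for Kcnmb4, 0.61 for Kcnh2, 0.64 for Cacnb1, -0.71 for Kcnj10, -0.47 for Kcnj16 and -0.66 for Scn1a.

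Meg3 split the libraries into 2 sets, with a gap of 45.6% of its range on the log2 scale, so its relation was tested within the 8 lower libraries (6 miR with PBS replicates 7 and 11), and no value is given over all 12. There 0 of 98 genes passed in limma in either direction (background 0%), with 0 rising (background 3.38%) and 4 falling (background 1.77%) at an unadjusted p under 0.05. The lowest r belonged to the pacemaker channel gene Hcn2 (-0.83, exact permutation p = 0.0105; rho -0.64, p = 0.0962), the leak channel gene Kcnk3 (-0.81, exact permutation p = 0.0273; rho -0.36, p = 0.389) and Kcne1l, a small auxiliary subunit (-0.80, exact permutation p = 0.0245; rho -0.48, p = 0.243). The highest were the BK beta subunit gene Kcnmb1 (0.59, exact permutation p = 0.114; rho 0.21, p = 0.619), the Erg2 gene Kcnh6 (0.58, exact permutation p = 0.122; rho 0.60, p = 0.132) and the SK3 gene Kcnn3 (0.53, exact permutation p = 0.173; rho 0.76, p = 0.0368). Limma's adjusted p was 0.904 for Kcne1l, 0.937 for Hcn2 and 0.944 for the other 4.

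Several of these values moved with miR replicate 6, which had the highest Meg3 of the miR group (68.1 RPKM) and the lowest Hcn2 (16.3 RPKM). Without it, r was -0.76 for Hcn2, -0.36 for Kcnk3, -0.39 for Kcne1l and -0.25 for Kcnmb1, and 0.48 for Kcnh6 and 0.74 for Kcnn3. The channel genes of positive and negative slope on Meg3 then numbered 55 and 43, against 32 and 66 with it, and the median slope was 0.12 without it (0.13 over all genes) against -0.17 with it (0.02 over all genes). Without miR replicate 6 and PBS replicate 11, the 2 libraries farthest from the median of Meg3, r was -0.28 for Hcn2, 0.25 for Kcnk3, -0.31 for Kcne1l and -0.45 for Kcnmb1, and 0.48 for Kcnh6 and 0.58 for Kcnn3. As a description, Kcnt1 lay between 9.51 and 11.7 RPKM in the 8 libraries of lower Meg3 and between 15.8 and 21.4 RPKM in the 4 PBS libraries of high Meg3. Of the 98 genes, 4 lay in those PBS libraries wholly above the other 8 libraries (background 8.21%), with Kcnt1, Cacna1h and Cacna1a among them, and 1 wholly below (Kcnj16; background 7.94%). Hcn2 showed no such split, with 16.3 to 18.5 RPKM in miR against 16.3 to 21.1 RPKM in PBS.

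Between miR and PBS no channel gene passed the test. In limma 0 of 98 had an adjusted p under 0.05 (background 0%), with 0.174 as the smallest value among them. At an unadjusted p under 0.05, 2 genes were higher in miR (background 9.12%) and 9 lower (background 11.1%). Without the threshold, 45 genes had a higher and 53 a lower mean log2 value in miR, with a median difference of -0.01, against 0.01 over all tested genes; after correction for GC content the split was 56 higher and 42 lower. No gene reached 1.5-fold: the largest values were 1.37-fold lower in miR (Kcnt1) and 1.23-fold higher (Kcns3). In 0 genes did the 6 miR libraries lie wholly above or wholly below the 6 PBS libraries (background 0.256% above and 0.226% below).

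The lower genes of smallest p included Cacna1h, Kcnt1, Cacnb1, Kcnd1 and Cacna1a. Kcnt1 (chromosome 2, 25719374 to 25771637) had 9.51, 11.02 and 11.7 RPKM in miR against 10.5, 16.0 and 21.4 RPKM in PBS. Its PBS values fell into 2 sets, since replicates 7 and 11 (11.3 and 10.5 RPKM) lay within the miR range and the other 4 above it. The log2 difference was -0.46 ± 0.14 (SE), with a limma adjusted p of 0.174. Without PBS replicates 8, 9, 10 and 12 it was 0.00.

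Cacna1h (chromosome 17, 25511232 to 25570728), the T-type channel Cav3.2, had 3.82, 4.42 and 5.42 RPKM in miR against 4.53, 6.16 and 6.85 RPKM in PBS, for a log2 difference of -0.36 ± 0.10 (limma adjusted p = 0.174). Here only PBS replicates 7 and 11 (4.53 and 5.34 RPKM) reached down into the miR values, and without the other 4 PBS libraries the log2 difference was -0.12.

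Cacnb1, the beta subunit gene, had 26.4 ± 2.07 RPKM in miR against 29.8 ± 1.67 RPKM in PBS (log2 difference -0.17 ± 0.06, limma adjusted p = 0.174). Kcnd1, an A-type pore, had 2.04 ± 0.3005 RPKM in miR against 2.55 ± 0.342 RPKM in PBS (log2 difference -0.26 ± 0.10, limma adjusted p = 0.191). Cacna1a, the P/Q-type channel, had 9.11 ± 0.444 RPKM in miR against 10.5 ± 1.39 RPKM in PBS (log2 difference -0.19 ± 0.07, limma adjusted p = 0.193). Hcn3 (given above) and Cacna1g, the T-type channel Cav3.1, were also lower at an unadjusted p under 0.05. Cacna1g had 10.5 ± 1.96 RPKM in miR against 13.4 ± 3.30 RPKM in PBS. The 2 ranges overlapped in all 9 genes. Without PBS replicates 8, 9, 10 and 12 the log2 difference was -0.13 for Cacnb1, -0.11 for Kcnd1, -0.04 for Cacna1a, -0.04 for Hcn3 and -0.08 for Cacna1g. All 8 calcium channel pores had a lower mean in miR (median log2 difference -0.12). All 8 also did with median scaling (-0.13) and without PBS replicates 8, 9, 10 and 12 (-0.08). Only 6 of 8 did after GC correction, with library weights or without PBS replicates 7 and 11, and 7 of 8 after quantile normalization.

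The higher genes of smallest p were the glial rectifiers. Kcnj10 (chromosome 1, 174271341 to 174304216) had 82.2, 86.9 and 95.8 RPKM in miR against 72.3, 77.3 and 92.6 RPKM in PBS, for a log2 difference of 0.15 ± 0.06 (limma adjusted p = 0.205). Only PBS replicate 7 reached into the miR range. Kcnj16 (chromosome 11, 110829347 to 110889281), which encodes the Kir5.1 subunit that joins Kir4.1, had 13.9, 16.1 and 17.3 RPKM in miR against 11.6, 13.7 and 16.2 RPKM in PBS, for a log2 difference of 0.21 ± 0.08 (limma adjusted p = 0.212). Its values in PBS replicates 8, 9, 10 and 12 (11.6 to 13.8 RPKM) lay below those in the other 8 libraries (13.9 to 17.3 RPKM). Without these 4 the log2 difference was 0.04 for Kcnj10 and 0.01 for Kcnj16. Beside them, 8 of 8 astrocyte markers had a higher mean in miR, 5 of them at an unadjusted p under 0.05 (background 9.12%) and 0 at the adjusted threshold by limma (background 0%). Of 7 oligodendrocyte markers, 7 also had a higher mean in miR, 0 of them at an unadjusted p under 0.05. Marker values without PBS replicates 8, 9, 10 and 12 are not given. The 8 astrocyte markers summed to 617 to 685 RPKM in miR against 514 to 659 RPKM in PBS, and their part in the values of Kcnj10 and Kcnj16 was not tested.

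The other 4 named on the higher side did not reach an unadjusted p of 0.05. Kcnb2, a slow delayed rectifier, had 2.19 ± 0.398 RPKM in miR against 1.79 ± 0.306 RPKM in PBS, and Kcnj3, the GIRK1 gene, 10.9 ± 0.736 RPKM in miR against 9.71 ± 1.41 RPKM in PBS. Kcns3, a silent subunit, had 1.35 ± 0.462 RPKM in miR against 0.987 ± 0.277 RPKM in PBS, and Kcnmb1 3.16 ± 0.486 RPKM in miR against 2.77 ± 0.421 RPKM in PBS. For each of these 4 the 2 ranges overlapped. Without PBS replicates 8, 9, 10 and 12 their log2 differences were 0.07 (Kcnb2), 0.02 (Kcnj3), 0.26 (Kcns3) and 0.11 (Kcnmb1).

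**Figure D4:**
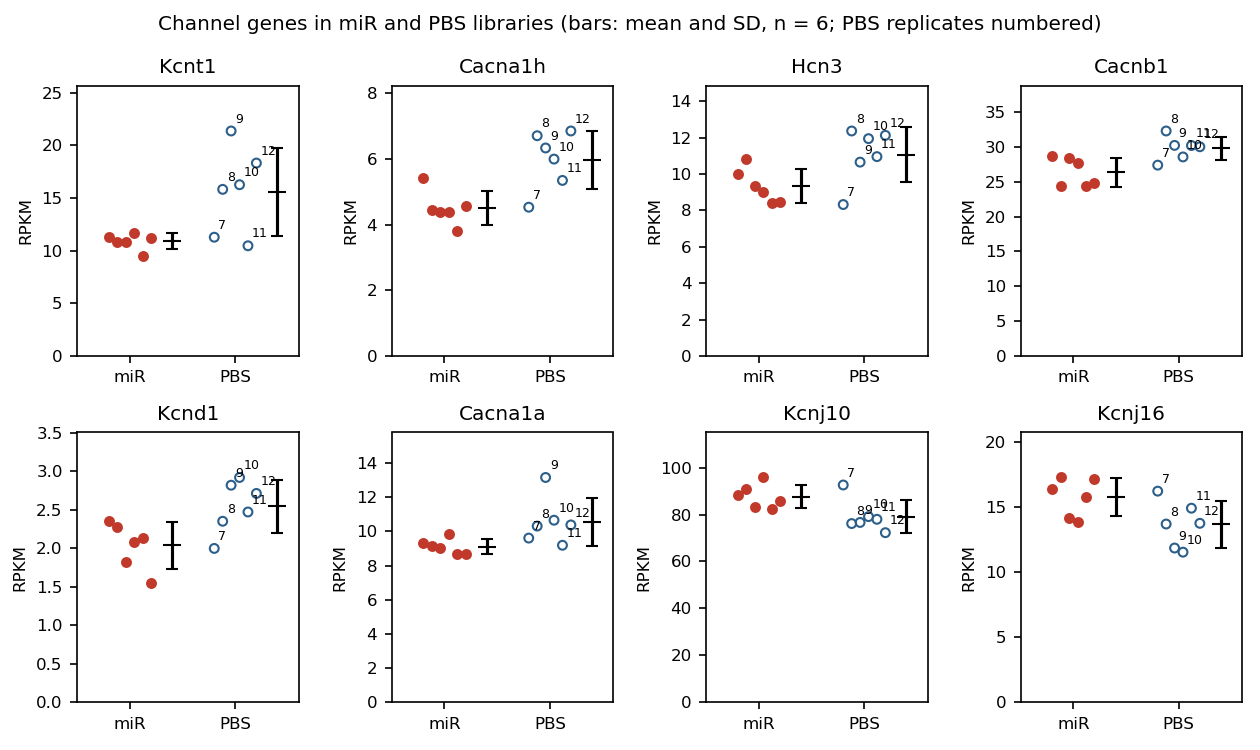
RPKM of 8 channel genes of small p in each library, miR (filled red) left of PBS (open blue, numbered by replicate), with mean and SD (n = 6 each) as bars; axes start at 0. In Kcnt1, PBS replicates 7 and 11 lie with the miR libraries at 11.3 and 10.5 RPKM and the other 4 above, and in Kcnj10 PBS replicate 7 lies among the miR libraries.

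Calls appeared when PBS libraries were left out. Without PBS replicate 7, limma called 5 channel genes (1 higher, Kcnj10, and 4 lower, Cacna1h, Hcn3 and Kcnt1 among them; background 6.85%), and without PBS replicate 11 it called 2 (both lower, Kcnt1 among them; background 3.23%). Without both there were 13, of which 4 were higher (Kcnj10, Kcnj16, Kcnh7 and Kcna3) and 9 lower, against a background of 23.4%. Without the 4 libraries of high Meg3 instead, only replicates 7 and 11 were left in the PBS group. In that fit 0 channel genes were called by limma (background 0%). At an unadjusted p under 0.05 there were 0 in either direction, beside a background of 0.392% higher and 0.354% lower. With so few PBS libraries the fit can miss differences, so these counts do not show their absence.

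The differences ran with the GC content of the transcripts. Spearman's rho between log2 difference and GC content was -0.68 across 96 channel genes and -0.64 across 13004 tested genes, given as a description across genes, which are not independent. Of the 37 channel genes of highest GC content (over 55.3%, the top 25% of all genes), 32 had a lower mean in miR, and 8 of the 9 genes lower at an unadjusted p under 0.05 were among them. Of the 20 in the lowest 25%, 2 had a lower mean. The median log2 difference of channel genes, set against that of all genes in the same bin, was 0.10 against 0.11 in the lowest bin and -0.08 against -0.11 in the highest. After GC correction 0 genes were higher (background 3.79%) and 3 lower (background 8.32%) at an unadjusted p under 0.05.

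**Figure D5:**
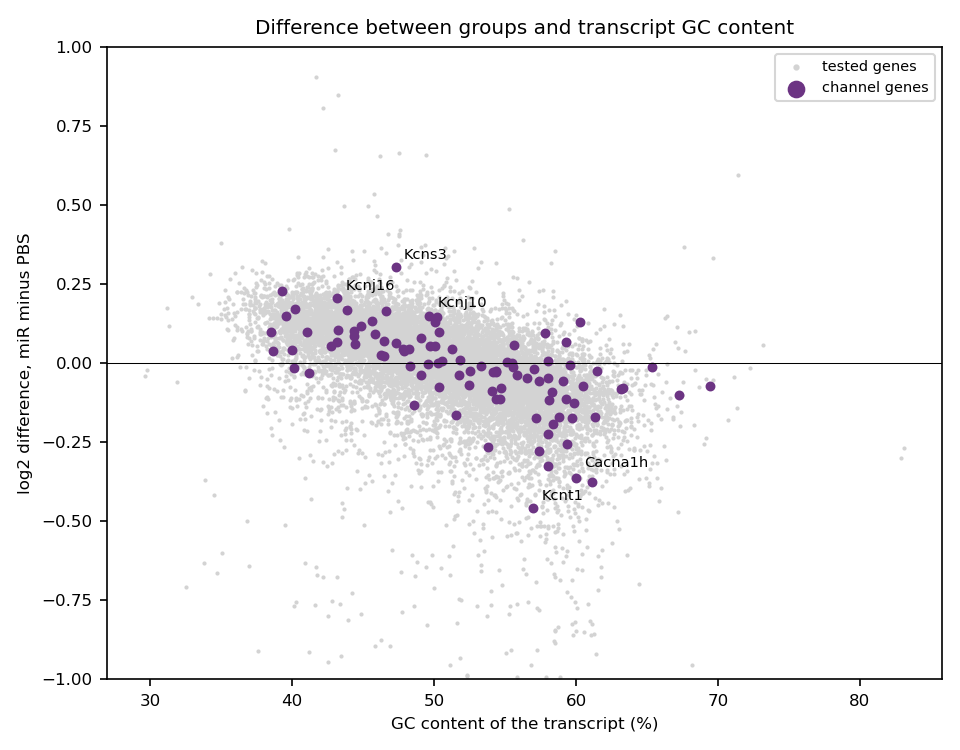
Log2 difference of miR minus PBS against GC content of the transcript in percent, for 96 channel genes (purple) over all tested genes (grey; 31 genes beyond the axis limits are not drawn). Both sets fall as GC content grows, with rho = -0.68 in the channel genes and -0.64 in all.

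Seed matches of the printed microRNAs are given as a description, with no test. Of 89 genes with an annotated 3′ untranslated region, 12 held a match to bases 2 to 8 of miR-29c (TGGTGCT), 16 to the shared seed of miR-30a and miR-30c (TGTTTAC), 14 to miR-32 (GTGCAAT), 27 to miR-204 (AAAGGGA) and 23 to miR-532-3p (GTGGGAG). The median log2 difference of genes with a match was 0.01 for miR-29c, 0.04 for miR-30, 0.04 for miR-32, 0.05 for miR-204 and -0.03 for miR-532-3p, against -0.01, -0.02, -0.02, -0.02 and 0.00 in the channel genes without it. Genes with a miR-532-3p match thus had the lower median and those with the other seeds the higher one, with differences under 0.1 throughout. These medians were not corrected for GC content, and its part in them was not tested. Shares with a match were 13.5%, 18.0%, 15.7%, 30.3% and 25.8% in that order, beside 13.8%, 15.1%, 7.05%, 14.9% and 14.5% of 12334 tested genes, whose untranslated regions are shorter (median 1008 bases, against 1832 bases in channel genes).

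Partners of channels outside the symbol rule were followed from a list of 32 genes, of which 29 were tested. In miR 18 had a higher and 11 a lower mean, beside 7015 higher and 6258 lower of all tested genes. In limma 0 passed at the adjusted threshold (background 0%). At an unadjusted p under 0.05, 4 were higher (background 9.12%) and 2 lower (background 11.1%). The smallest p belonged to Nalcn, the sodium leak channel, with 32.6 ± 2.04 RPKM in miR against 29.3 ± 1.97 RPKM in PBS (limma adjusted p = 0.184), and Fgf14, which binds sodium channels, with 16.6 ± 1.39 RPKM in miR against 14.6 ± 1.297 RPKM in PBS (limma adjusted p = 0.201). With Slc17a6, 1 of the 29 rose (background 0.769%), Fgf13, another binder of sodium channels (r = 0.83, limma adjusted p = 0.0422), and 0 fell (background 0.098%).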

How the data were processed

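Poly-A RNA of 12 PVN micropunches was sequenced as single-end stranded libraries, pooled over 2 lanes, per the labels' protocols and the series design. The authors deposited RPKM values, 1 column per animal and 30399 rows for RefSeq transcripts. The submitters' processing notes name mm9 and edgeR, whose part is not stated; aligner, counter, use of strand and scaling are, in the sources used here, not given. Rows sharing reads (isoforms, overlapping or antisense genes) were not separated.

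Each gene was taken as its row of highest mean. Genes averaging 1 RPKM or more were analysed as log2(RPKM + 0.5), which understates changes of low genes, with limma 3.58.1 in R 4.3.3 (variance trend, 2-sided, Benjamini-Hochberg adjusted over all tested genes, threshold 0.05), on group or on the log2 level of Slc17a6, Avp or Meg3. The p-values of r and rho are 2-sided, by 100000 permutations of 12 libraries or exactly for 8. Where an anchor gene's levels had a gap of over 40% of their range, tests stayed within the larger set. Tables were made in Python 3.11.15. GC content (98.0% of tested genes matched) and 3′ untranslated regions came from GENCODE transcripts matched by RefSeq accession.

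Named genes were the 2 highest of each of 14 families, the 6 of smallest p per direction, the 3 highest and 3 lowest r per anchor gene, and the 2 partners of smallest p; other genes were named after their values were seen. Some genes of this rule, and 1 promoter, are not reported here. Members, lists and tests were chosen with earlier results of these data known. Depth rests on value steps, so counting intervals are not given. Alternatives were other pseudocounts, filters, scalings, row means, GC correction in 20 bins, library weights, a group term and libraries left out. Scripts were tested on simulated data.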

Additional observations from a re-analysis of the deposited data

Results flagged for a closer look

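In 49 genes, the named ones and their comparison genes, each group of 6 libraries was examined for a single library far from the others, and 5 of 98 groups had one; chance alone gives about 1 in 20 groups. In the miR group, replicate 3 was high in Kcnj5 (7.78 RPKM, against 3.48 to 4.11 RPKM in the other 5). Replicate 6 was low in Hcn2 (16.3 RPKM, against 17.8 to 18.5 RPKM) and high in Meg3 (68.1 RPKM, against 49.9 to 55.1 RPKM). In the PBS group, replicate 9 was high in Cacna1a (13.2 RPKM, against 9.19 to 10.7 RPKM) and replicate 7 in Kcnj10 (92.6 RPKM, against 72.3 to 79.1 RPKM).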

How the results depend on the processing

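The count of channel genes called between miR and PBS (0) was 9 with library weights (background 22.8%), 13 without PBS replicates 7 and 11 (background 23.4%), and 0 to 5 with 1 library left out (background 0% to 6.85%). The count rising with Slc17a6 (5 of 98, background 0.769%) was 2 of 69 with a filter at 5 RPKM (0.666%) and 3 of 136 with no filter (0.322%). The 5 RPKM filter left out Kcnk13, Kcna4 and Kcnj5 (means of 2.33, 4.02 and 4.21 RPKM), while Kcns2 and Cacng3 stayed called. With the same 98 genes the count was 10 with GC correction (1.54%) and 2 to 6 with 1 library left out (0.301% to 0.889%). Counts with Avp and Meg3 stayed at 0 in every alternative run. At an unadjusted p under 0.05, the 2 higher genes (background 9.12%) were 0 with GC correction (3.79%), 10 with library weights (19.5%), 9 without PBS replicates 7 and 11 (20.2%), 0 without PBS replicates 8, 9, 10 and 12 (0.392%), and 0 to 4 with 1 library left out (5.09% to 15.2%). The 9 lower genes of 98 (11.1%) were 3 with GC correction (8.32%) and 14 without PBS replicates 7 and 11 (17.4%). They were 0 without PBS replicates 8, 9, 10 and 12 (0.354%), and 6 to 15 with 1 library left out (7.7% to 14.5%). With no filter, 136 channel genes were tested and 15 were lower (9.24%). The median log2 difference of the channel genes (-0.01) ran from -0.04 without PBS replicates 8, 9, 10 and 12 to 0.03 with library weights, and was 0.01 with GC correction. Among genes named for a small p between groups or for their r with an anchor gene, that value turned direction in 2. Kcnt1 had a log2 difference of 0.000214 without PBS replicates 8, 9, 10 and 12. The r of Kcnmb1 with Meg3 ran from -0.25 to 0.81 with 1 library left out, lowest without miR replicate 6. Of the 8 calcium channel pores, all lower in miR in the main fit, 2 were higher after GC correction. The same number were higher with library weights or without PBS replicates 7 and 11. The r of Kcnk3 with Meg3 also turned, to 0.25, without miR replicate 6 and PBS replicate 11, and the median slope on Meg3 turned without miR replicate 6. The cause of these shifts was not tested. Fits without PBS replicates 8, 9, 10 and 12 kept only replicates 7 and 11 in the PBS group. Their counts of 0 do not show that differences are absent. No paired analysis was possible because the groups share no replicate numbers. Levels near 1 RPKM rest on few reads, about 46 for a transcript of 2 kb in the shallowest library.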
